A study of Rattus norvegicus with 64 samples.

Results

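The genes of the major histocompatibility complex (MHC), the proteins that load and control it, and the genes that answer interferon were followed through the postnatal rat entorhinal cortex. The set held 70 of the 17260 genes counted. It was made of the 49 genes whose symbol begins with RT1-, the rat name of the MHC, and of 21 of 22 genes added by name, Nlrc5 being not analysed here. By role, 39 members were MHC class I genes, 12 served class II presentation, 6 class I loading and peptide processing, 4 interferon signalling, and 9 were interferon-induced effectors.

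Total RNA depleted of ribosomal RNA had been sequenced from 64 dissections of Long Evans rats, an outbred stock, with no treatment or genetic change in any group. Layer II (LII) and the deeper layers III to VI as 1 piece (LDeep) were dissected by hand from unstained sections of the medial (MEC) and the lateral entorhinal cortex (LEC), at postnatal days 2, 9, 23, and 45 (P2, P9, P23, and P45). Each layer of each region had 5 samples of P2, 3 of P23, and 4 of both P9 and P45. The labels number the replicates within an age but do not say that a number is an animal, so p-values measure only the spread between these samples, and in bulk tissue fewer cells of a type and less RNA per cell cannot be told apart.

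Class I molecules sit on most cells with beta-2-microglobulin and show peptides that the immunoproteasome cuts and the TAP transporter carries into the endoplasmic reticulum. Class II molecules show peptides taken up from outside and are normally made by macrophages, dendritic cells, and B cells, with the invariant chain Cd74 as chaperone and Ciita as the master switch of their transcription. Interferons act through STAT and IRF factors, which switch on antiviral effectors and class I genes alike, and in healthy brain most of these genes are known to be low, with microglia and the macrophages of the meninges and vessels as the main carriers.

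The deposited values are read pairs counted per gene, 3894334 to 11439143 per sample (median 7569157.5), and are given here as CPM, counts scaled to a common library size after TMM normalization. A single count stood for 0.0895 to 0.253 CPM, so members below about 1 CPM rest on few counts. LFC is the log2 fold change of a model over all genes, with its standard error after ±, and a gene was called at an adjusted p below 0.05 (edgeR's quasi-likelihood test, Benjamini-Hochberg, BH). The dissections were checked against markers. In 9 of 10 P2 samples of each layer Reln, a marker of layer II neurons, read 757 to 1459.6 CPM in LII and 202 to 386 CPM in LDeep. The library labelled MEC LDeep P2 replicate 1 read 717 CPM, and its 9 markers of meningeal fibroblasts summed to 1132 CPM against 30.2 to 93.8 CPM in the other LDeep samples of that age. Its partner, labelled MEC LII P2 replicate 1, read 642 CPM of Reln and a fibroblast sum of 29.7 CPM. MEC LII P2 replicate 3 also had a low fibroblast sum, 48.3 CPM, with 996 CPM of Reln. Both were kept under their labels, and counts without P2 replicate 1 are given beside the results that rest on it.

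To find which members differ between layers, LII was compared with LDeep over both regions and all ages. Of the 52 members with enough counts for the test, 43 were higher in LII and none was lower, where 23.5% of all 12521 genes tested were higher in LII, 30.5% lower and 54% differed in either direction. The median LFC of the members was 0.66, against -0.048 for all genes. All 9 effectors and all 5 loading genes tested were higher in LII, as were 21 of 27 class I genes, 5 of 7 class II genes, and 3 of 4 signalling genes. The count was 43 without P2 replicate 1, and by the same model 39 in the MEC alone (where 40.8% of all genes differed, 21% upward and 19.9% downward) and 39 in the LEC (38.6%, 17.4% and 21.2%). With quantile normalization in limma voom, 30 members were higher and 4 lower in LII, the lower being RT1-M6-1 (LFC -0.80), RT1-M1-2 (-0.73), RT1-DOb (-0.63), and Irf9 (-0.16). The share of all genes called by that fit is not given here.

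Tissue markers moved with the layers too. The fibroblast sum had a median of 979 CPM in LII (29.7 to 1506) and 71.7 CPM in LDeep (30.2 to 1132) at P2, and of 1116 (269.7 to 1613) and 179 CPM (96.9 to 252) at P45, and 8 of 9 fibroblast markers were called higher in LII. For border macrophages, the macrophages of meninges and vessels, the sum over 6 markers was 68.4 (3.9 to 92.8) against 6.61 CPM (3.93 to 58.5) at P2 and 72.8 (27.1 to 111) against 16.9 CPM (9.93 to 22.4) at P45, with 5 of 5 markers tested higher in LII. All 7 endothelial markers and 7 of 10 microglial markers were also higher in LII. The share of these cells in the layer differences of the members was not tested. Of 5 astrocyte markers, 4 were higher in LII. The medians of the fibroblast and border macrophage sums in LII were about as high at P2 as at P45, and those in LDeep were higher at P45.

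Of the 12 class II genes 7 passed the filter on low counts, with a median LFC of 2.89, and some of them, such as RT1-Bb and Ciita, had most of their counts in LII at P23/P45. Of the 5 that did not pass, RT1-DMa had a ratio of mean CPM between LII and LDeep of 1.12 and RT1-Db2 of 0.692. All their RT1- chains lie on chromosome 20 of Rn6. Cd74, the invariant chain (on Rn6 at chr18:56071478-56080851), had its lowest, median, and highest values in the 10 LII samples of P2 at 0.176, 0.324 and 0.946 CPM, and in the 8 of P9 at 0.81, 2.02 and 3.26 CPM. In the 6 of P23 they were 17.4, 30.1 and 44.9 CPM, and in the 8 of P45 11.9, 54.4 and 104 CPM. In LDeep the same values were 0, 0.124 and 0.311 CPM, 0.226, 0.425 and 1.62 CPM, 0.287, 0.879 and 1.09 CPM, and 0.229, 1.83 and 7.34 CPM. At P23 and P45 every LII sample was above every LDeep sample, at P2 and P9 the layers overlapped, and LII was the higher in 30 of 32 pairs of one region and replicate number. The LFC was 3.16 ± 0.30 between layers (adjusted p = 2e-13) and 5.03 ± 0.24 between P23/P45 and P2/P9 (adjusted p = 1.3e-11).

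RT1-Da, the alpha chain of the DR-like class II molecule (chr20:4127644-4132616), held 4 counts in all 10 LII samples at P2 and 5 in the 10 LDeep samples. At P45 it ranged from 2.87 to 25.9 CPM in LII (median 15.3) and from 0 to 2.15 CPM in LDeep (median 0.356). At P23 the range was 4.44 to 12.6 CPM in LII and 0.114 to 0.684 CPM in LDeep. As for Cd74, the layers did not overlap at these ages, and LII was higher in 14 of 14 pairs. Its LFC was 2.97 ± 0.70 between layers (adjusted p = 0.00033, not called without P2 replicate 3, LFC 2.80 to 3.16 over all left-out numbers) and 5.06 ± 0.33 between ages (adjusted p = 5.9e-10).

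RT1-Bb, the beta chain of the DQ-like molecule (chr20:4043726-4049367), held the fewest counts of the 4 DR-like and DQ-like chains described. Its 32 LII samples held 318 counts and its 32 LDeep samples 16, a ratio of mean CPM of 23.7. RT1-Bb shares 52.3% of its exonic bases with LOC688090, and read pairs were counted for each gene they overlapped. Its counts may therefore include reads of that gene. At P23 LII read 1.4 to 4.14 CPM against 0 to 0.287 CPM in LDeep, and at P45 0.454 to 6.4 against 0 to 0.506 CPM, so the layers overlapped at P45 and not at P23. At P2 and P9 most samples of both layers were at 0. Since 4 of the 16 groups were at 0, edgeR's contrast over all ages could not be fitted for it, while DESeq2 gave an LFC of 3.13 (adjusted p = 2.7e-10). Within P23 the LFC was 5.10 ± 0.71 and within P45 4.26 ± 0.52, both called by edgeR's quasi-likelihood test. Between ages its LFC was 5.35 ± 0.44 (adjusted p = 9.3e-09).

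The partner chains moved with these genes. The DQ-like alpha chain RT1-Ba had a layer LFC of 2.90 ± 0.43 and an age LFC of 3.75 ± 0.37. For the DR-like beta chain RT1-Db1 they were 1.10 ± 0.18 and 1.69 ± 0.17, with all 14 LII samples of P23/P45 above the LDeep samples of their age. Ciita, the class II transactivator, was sparse, with 90 counts in LII and 14 in LDeep over 32 samples each. Of these, 80 and 2 fell at P23/P45, and it was called between layers (adjusted p = 0.00088, not called without P2 replicate 3 or P9 replicate 3, fitted LFC 2.05 to 2.57) and between ages (LFC 2.21 ± 0.51). RT1-DOb, the beta chain of the DO molecule that restrains peptide exchange, took another course. It read a median of 0.787 CPM in LII and 1.11 in LDeep at P2, 4.35 and 4.01 CPM at P9, and 2.29 and 1.63 CPM at P45. The layers overlapped at every age (layer LFC -0.18 ± 0.15, adjusted p = 0.3), it rose from P2 to P9 (LFC 2.25 ± 0.19) and fell from P9 to P23 (LFC -0.64 ± 0.20).

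The promoters of these chains are shown because the genes moved together. They are the 150 bases before each gene's start from RefSeq on build GRCr8, a later build than the Rn6 of the counts, 5′ to 3′ on the gene's strand, with the Y box (CTGATTGG) and in RT1-Da also the X box, the first run of capitals, marked. Both are known elements of class II promoters, and their letters were chosen after the sequences had been seen.
RT1-Da, chr20:4515265-4515414, plus strand: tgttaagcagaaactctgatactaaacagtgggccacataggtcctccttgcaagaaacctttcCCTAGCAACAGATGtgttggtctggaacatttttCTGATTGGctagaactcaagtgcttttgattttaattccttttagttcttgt
RT1-Bb, chr20:4604119-4604268, minus strand: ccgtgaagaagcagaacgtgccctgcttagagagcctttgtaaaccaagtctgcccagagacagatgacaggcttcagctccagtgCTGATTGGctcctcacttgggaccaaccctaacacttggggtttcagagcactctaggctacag
RT1-Ba, chr20:4576907-4577056, plus strand: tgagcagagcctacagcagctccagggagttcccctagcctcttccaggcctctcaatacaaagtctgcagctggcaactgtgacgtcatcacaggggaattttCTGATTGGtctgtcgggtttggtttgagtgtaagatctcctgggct
RT1-Db1, chr20:4560163-4560312, minus strand: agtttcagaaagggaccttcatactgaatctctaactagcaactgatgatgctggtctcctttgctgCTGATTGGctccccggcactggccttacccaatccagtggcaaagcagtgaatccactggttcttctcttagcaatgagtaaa
All 4 carried the Y box, which on both strands and in the 250 bases before the start was in 17 of the 58 members with a promoter sequence, 10 of them class I genes that held it in reverse, and in 3.19% of all 33469 promoters. The class II genes RT1-Db2, RT1-DOa, and RT1-Ha, which had too few counts for the tests, also held the Y box. Cd74, RT1-DMa, and RT1-DOb did not hold it. Whether the box bears on the shared course was not tested. The Y box contains the reverse of CCAAT, which alone was in 36 members and 34% of promoters. The X box letters searched were those of RT1-Da itself, and no other promoter held them exactly. This does not show that other promoters lack an X box. RT1-Db1 holds a similar stretch before its Y box, actagcaactgatg, which is not marked. A match describes the letters and not a bound site.

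**Figure D1:**
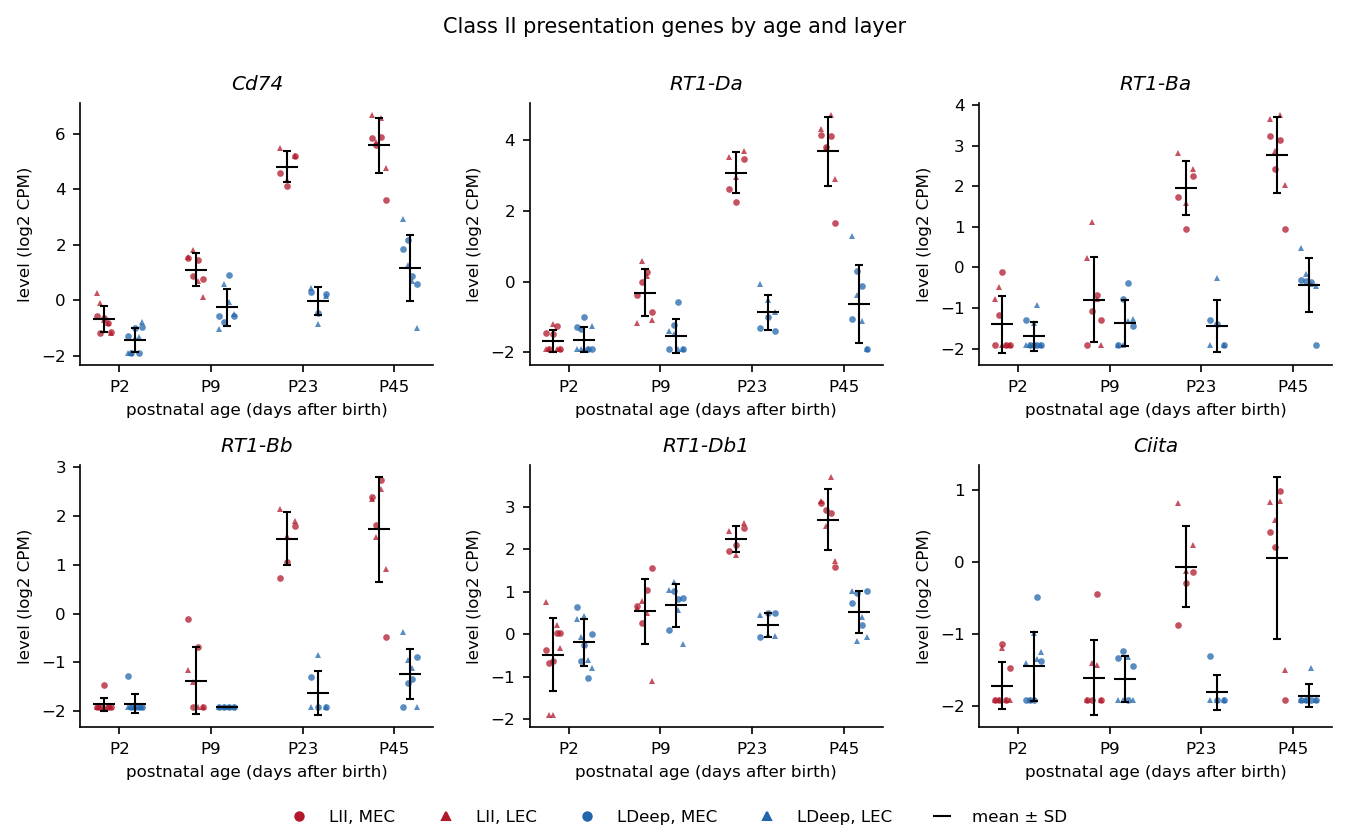
Levels of 6 class II genes by age, as log2 CPM with 1 point per sample (red LII, blue LDeep, circles MEC, triangles LEC) and the mean ± SD of each layer in black. The LII samples of Cd74 and RT1-Da lie above all LDeep samples at P23 and P45, while at P2 both layers lie at the bottom of the axis.

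Of the 6 loading and processing genes, the 5 tested had counts in both layers of both regions at P2, while Tap2 held 3 counts in LII and 0 in LDeep over all samples of that age. B2m, the light chain of class I (chr3:114087287-114093311), was the most abundant member per length, at 230.2 RPKM (CPM per kilobase of exon) in LII at P45 where Cd74 stood at 47.3. It ranged over 89.7, 120.3 and 165 CPM (lowest, median, highest) in LII and 31.1, 87.7 and 109.9 CPM in LDeep at P2. At P45 it ranged over 289, 440.0 and 526 CPM in LII and 130.3, 259.6 and 319 CPM in LDeep. The layers overlapped at P2, P9, and P45 as groups, but LII was higher in 32 of 32 pairs of one region and replicate number (LFC 0.59 ± 0.080, adjusted p = 9.4e-09). Between ages the LFC was 1.06 ± 0.087 (adjusted p = 9.3e-09), and the step from P2 to P9 had an LFC of 1.25 ± 0.12.

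Psmb8 and Psmb9 are catalytic subunits of the immunoproteasome, and their genes lie beside Tap1 on chromosome 20 (chr20:3973424-3978845 for Psmb9, chr20:3990809-3993772 for Psmb8). Psmb8 went in LII from a median of 1.74 CPM at P2 (1.04 to 2.14) to 6.98 CPM at P45 (3.93 to 13.1), and in LDeep from 1.21 (0.677 to 1.8) to 2.76 CPM (0.687 to 3.64). Its layers did not overlap at P23 and P45. Psmb9 went in LII from 1.74 (1.49 to 2.29) to 5.38 CPM (2.86 to 12.9), and in LDeep read 1.62 CPM at P2 (0.852 to 2.68) and 1.36 CPM at P45 (0.687 to 2.91). The highest LDeep sample of Psmb9 at P45 just passed the lowest LII sample. Layer LFCs were 1.08 ± 0.11 for Psmb8 and 1.22 ± 0.14 for Psmb9, and age LFCs 1.16 ± 0.14 and 0.36 ± 0.17, the latter not called (adjusted p = 0.068). Tap1, a subunit of the peptide transporter, was higher in LII (LFC 0.85 ± 0.10) with an age LFC of -0.12 ± 0.12 (adjusted p = 0.36). In LDeep samples alone Tap1 fell with age (LFC -0.73, adjusted p = 0.00071). Tapbp, which bridges TAP and class I, was higher in LII (LFC 0.55 ± 0.071) and rose with age (LFC 0.53 ± 0.068).

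Among the class I genes, the 21 called between layers ran from an LFC of 0.24 ± 0.090 for RT1-M3-1, which presents formylated peptides, to 0.99 ± 0.19 for RT1-CE16, and the median over 27 genes was 0.60. RT1-M3-1 stood at -0.028 and was not called with quantile normalization, and it was not called without P2 replicate 5 (LFC 0.21 to 0.29 over all left-out numbers). RT1-N1 and RT1-N2 were not called without P23 replicate 3 or P45 replicate 3 (LFC 0.24 to 0.32 and 0.24 to 0.32). RT1-A2, a classical class I gene (chr20:5375011-5378536), changed order between ages. At P2 it read 2.5, 4.02 and 5.12 CPM in LII and 3.6, 5.45 and 7.6 CPM in LDeep (lowest, median, highest), and at P45 12.1, 21.4 and 32.5 CPM and 6.87, 9.13 and 10.3 CPM. LII was lower at P2 with overlap (LFC -0.47 ± 0.16, adjusted p = 0.026, and -0.50 with adjusted p = 0.036 without P2 replicate 1), although it was not called without P2 replicate 4 or 5. At P23 and P45 all LII samples were above all LDeep samples. Not called between layers were RT1-CE3 (LFC 0.54 ± 0.27), RT1-CE13 (0.35 ± 0.31), RT1-M1-2 (0.038 ± 0.16), RT1-T24-2 (-0.26 ± 0.36), RT1-M6-1, and RT1-M6-2.

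The last pair were the class I genes with the largest rise with age. RT1-M6-2 and RT1-M6-1 are neighbours in the M region of chromosome 20 (chr20:2076267-2079183 and chr20:2057878-2060794). RT1-M6-2 held 1 count in the 10 LII samples at P2, 0 in LDeep, and 3 and 1 at P9. At P23 it ranged over 0.14, 1.65 and 2.92 CPM in LII and 1.09, 1.35 and 3.19 CPM in LDeep, and at P45 over 0.493, 3.48 and 4.82 CPM and 1.06, 4.12 and 5.54 CPM (lowest, median, highest). The layers overlapped throughout, and every sample of P23 and P45 had at least 1 count. Its age LFC was 6.86 ± 0.51 (adjusted p = 2.4e-09), and the step from P9 to P23 had an LFC of 5.47 ± 0.70. RT1-M6-1 had medians of 0.906 CPM in LII (0.171 to 3.05) and 1.72 CPM in LDeep (0.193 to 2.87) at P45, and 1 and 6 counts at P2 (age LFC 4.75 ± 0.40). RT1-M1-2, another gene of the M region, went from 8 and 4 counts in all LII and LDeep samples of P2 to 0.493 to 1.88 CPM in LII and 0.675 to 2.75 CPM in LDeep at P45 (age LFC 3.03 ± 0.25). RT1-Cl (age LFC 2.81 ± 0.53) shares 98.6% of its exonic bases with RT1-M6-1, and read pairs were counted for each gene they overlapped, so the pair is not independent.

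Only RT1-M5 and RT1-T24-2 fell with age among the 55 members tested. RT1-M5, also of the M region, had an LFC of -2.57 ± 0.40 (adjusted p = 1.9e-05), and RT1-T24-2 of -1.17 ± 0.40 (adjusted p = 0.014). After RT1-Cl, RT1-CE13 (LFC 2.57 ± 0.32), RT1-T24-3 (2.15 ± 0.20), RT1-S3 (1.64 ± 0.14), RT1-M3-1 (1.44 ± 0.15), RT1-T24-4 (1.39 ± 0.13), and RT1-A1 (1.22 ± 0.10) were next in size among the 26 class I genes that rose. RT1-T24-4 shares 76.6% of its exonic bases with LOC360231, which is not a member. Class I genes are polymorphic and alike, and RT1-CE1 with RT1-CE12, RT1-CE7 with RT1-CE11, and RT1-N1 with RT1-N2 share most of their exonic bases, so values of single class I genes are uncertain. Without 1 gene of each of these pairs, 40 members differed between layers and 46 between ages.

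**Figure D2:**
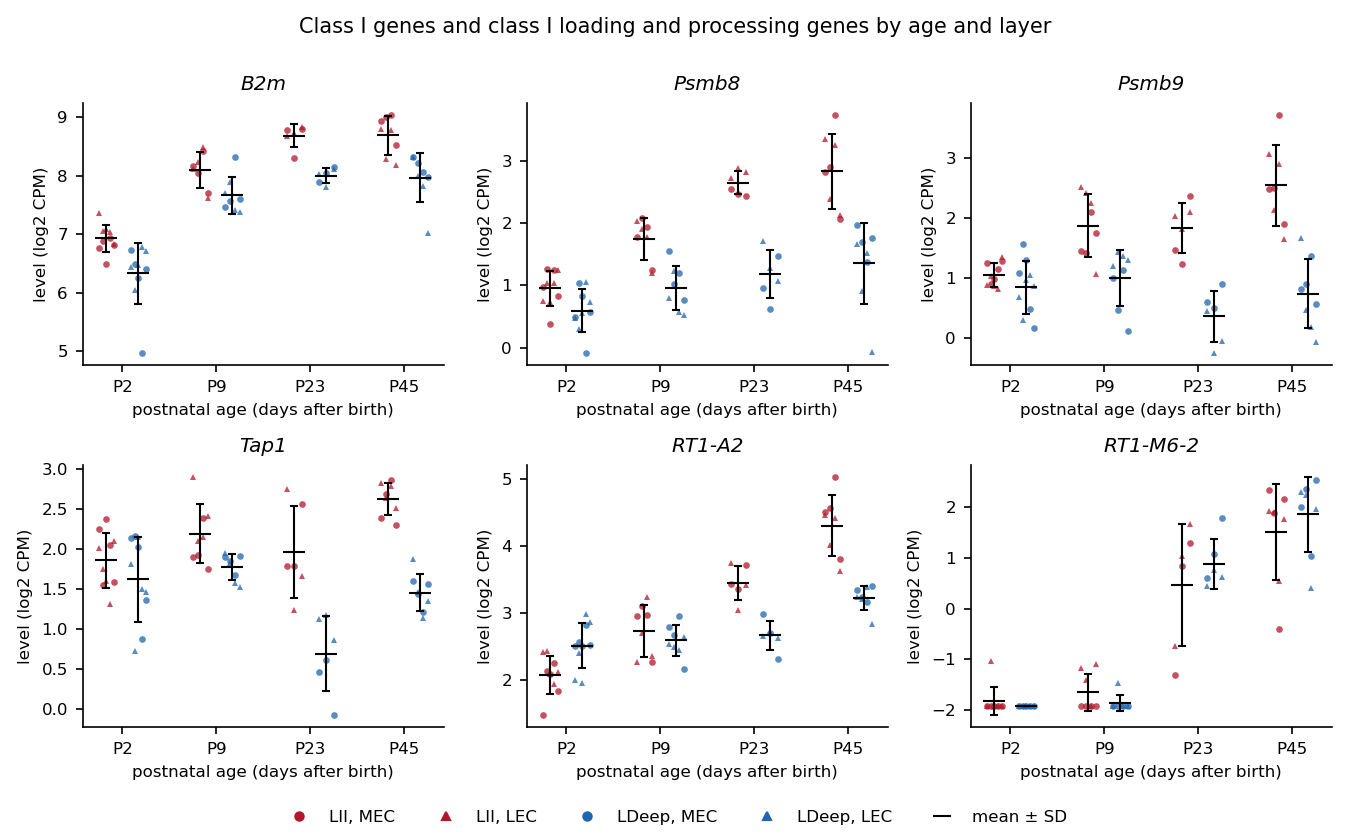
Levels of 6 genes of class I and its loading by age, as log2 CPM with 1 point per sample (red LII, blue LDeep, circles MEC, triangles LEC) and the mean ± SD of each layer in black. RT1-M6-2 leaves the bottom of the axis at P23 in both layers, and RT1-A2 is higher in LII at P23 and P45 but not at P2.

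All 9 interferon-induced effectors were called higher in LII. Apol9a, an interferon-induced apolipoprotein L (chr7:118927017-118933778), had 449 counts in LII and 65 in LDeep, a ratio of mean CPM of 8.54 (adjusted p = 9.3e-11). At P2 it ranged over 0, 0.308 and 0.712 CPM in LII and 0, 0.0639 and 1.43 CPM in LDeep (lowest, median, highest), and its highest LDeep sample was the library labelled MEC LDeep P2 replicate 1. At P9 it ranged over 0.565, 1.1 and 1.98 CPM and 0, 0 and 0.101 CPM, and at P45 over 0.756, 5.29 and 7.14 CPM and 0, 0.419 and 1.38 CPM. The layers did not overlap at P9 and P23, and LII was higher in 28 of 32 pairs (age LFC 2.20 ± 0.33).

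Ifit3, which binds foreign RNA together with other IFIT proteins (chr1:252906234-252911375), had the largest age LFC of the effectors, 3.44 ± 0.34 (adjusted p = 8e-08). It read 13 and 6 counts in all LII and LDeep samples of P2, 0.514, 1.33 and 4.31 CPM in LII and 0.282, 0.387 and 1.5 CPM in LDeep at P23, and 1.66, 3.67 and 6.03 CPM and 0.624, 1.14 and 2.45 CPM at P45. The layers overlapped at every age, with LII the higher in 13 of 14 pairs of P23/P45 (layer LFC 1.44 ± 0.30). Mx1, a GTPase that blocks viruses (chr11:37891150-37916690), ranged over 0, 0.475 and 0.88 CPM in LII and 0, 0.381 and 0.72 CPM in LDeep at P2. At P9 the values were 0.45, 0.829 and 2.48 CPM and 0.752, 1.15 and 2.88 CPM, at P23 1.28, 2.53 and 8.29 CPM and 0.86, 1.06 and 1.78 CPM, and at P45 1.97, 5.07 and 44.6 CPM and 0.54, 1.33 and 2.03 CPM. The LDeep median was the higher at P9 and the LII median at the other ages, and all groups overlapped. Its LFC was 1.08 ± 0.24 between layers and 2.26 ± 0.35 between ages.

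A few libraries stood above the rest in these genes. The value of 44.6 CPM of Mx1 was that of MEC LII P45 replicate 3, which was the highest of the 8 LII samples of its age in 26 of 52 members and in 8 of 9 effectors, with 169.8 CPM of Mx2, 16.9 CPM of Isg15, and 20.4 CPM of Irf7. At P23 LEC LII replicate 1 was the highest of 6 in 8 effectors. Without P45 replicate 3, 37 members were called between layers. MEC LII P45 replicate 4 was the lowest of its 8 in 22 members, 6 of them class II genes. Its Cd74 was 11.9 CPM and its fibroblast sum 269.7 CPM, where the 7 others had at least 27.4 and 756 CPM. The part of tissue composition in this was not tested.

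The remaining effectors had layer LFCs of 1.90 ± 0.15 for Ifitm3, which keeps viruses from fusing with the cell, 1.61 ± 0.34 for Bst2, which tethers budding virus, and 1.47 ± 0.27 for Oas1a, a sensor of double-stranded RNA. They were 0.86 ± 0.25 for Isg15, a ubiquitin-like modifier, 0.66 ± 0.25 for Mx2, and 0.35 ± 0.14 for Ifit2. The last pair were not called when certain replicates were left out, Mx2 without P23 replicate 1 or P45 replicate 3 (LFC 0.56 to 0.71 over all left-out numbers) and Ifit2 with any of 7 of the 16 replicate numbers left out, namely P2 2 and 4, P9 1, P23 1 and 2, and P45 2 and 3 (LFC 0.29 to 0.43). With age Oas1a (LFC 2.08 ± 0.32), Isg15 (1.88 ± 0.30), Bst2 (1.73 ± 0.34), Ifit2 (1.4 ± 0.14), and Ifitm3 (1.29 ± 0.20) rose, while Mx2 had an LFC of 0.28 ± 0.45 (adjusted p = 0.58).

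Of the signalling genes, Irf7, a factor that amplifies the interferon answer (chr1:214249388-214252455), changed most. It ranged over 0.379, 1.35 and 2.64 CPM in LII and 0, 0.678 and 1.83 CPM in LDeep at P2, over 0.81, 2.53 and 4.31 CPM and 0.798, 1.28 and 1.53 CPM at P23, and over 4.99, 7 and 20.4 CPM and 1.15, 3.8 and 4.28 CPM at P45. At P45 all LII samples were above all LDeep samples, and at the younger ages they overlapped (layer LFC 1.14 ± 0.20, age LFC 1.56 ± 0.24). Irf1, a factor of the interferon gamma answer, had medians of 5.84 (5.02 to 7.35) and 5.39 CPM (3.16 to 8.62) in LII and LDeep at P2, and of 13.7 (6.5 to 15.5) and 8.24 CPM (6.18 to 8.78) at P45. The groups overlapped at both ages, while at P23 they did not (layer LFC 0.64 ± 0.089, age LFC 0.65 ± 0.10). Stat2 and Irf9, which form a complex that carries the type I interferon signal to DNA, differed little between layers. Stat2 had medians of 37.1 (23.8 to 45.5) and 33.3 CPM (23 to 38.6) at P2 and 51.6 (45.9 to 59.1) and 48.7 CPM (44 to 55.7) at P45, with a layer LFC of 0.13 ± 0.047 that was not called without P2 replicate 5, P9 replicate 4, P23 replicate 3, or P45 replicate 1 or 3 (LFC 0.10 to 0.16), and an age LFC of 0.46 ± 0.061. Irf9 had a layer LFC of -0.026 ± 0.052 (adjusted p = 0.7) and an age LFC of 0.004 ± 0.066 (adjusted p = 0.95).

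The promoters of 5 of these genes are given with the letters of the interferon-stimulated response element in capitals (ISRE core, GAAA, any 2 bases, and GAAA, on either strand, where overlapping matches and in Bst2 the GAS motif TTCNNNGAA run together). They are 150 bases before the start from RefSeq on GRCr8, 5′ to 3′ on the gene's strand.
Apol9a, chr7:111028214-111028363, minus strand: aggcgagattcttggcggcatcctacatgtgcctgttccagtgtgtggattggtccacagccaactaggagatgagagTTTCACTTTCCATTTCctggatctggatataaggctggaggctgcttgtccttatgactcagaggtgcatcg
Ifit3, chr1:241527176-241527325, plus strand: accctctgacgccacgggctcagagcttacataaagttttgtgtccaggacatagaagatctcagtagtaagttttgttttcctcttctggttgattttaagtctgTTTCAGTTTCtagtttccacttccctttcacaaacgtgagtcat
Oas1a, chr12:41330316-41330465, plus strand: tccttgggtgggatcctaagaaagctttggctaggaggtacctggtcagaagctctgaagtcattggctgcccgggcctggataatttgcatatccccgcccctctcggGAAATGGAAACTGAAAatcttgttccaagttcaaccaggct
Bst2, chr16:18254968-18255117, minus strand: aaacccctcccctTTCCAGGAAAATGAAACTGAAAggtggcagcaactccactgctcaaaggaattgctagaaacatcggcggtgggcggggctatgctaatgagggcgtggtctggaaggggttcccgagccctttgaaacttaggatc
Irf7, chr1:205800024-205800173, minus strand: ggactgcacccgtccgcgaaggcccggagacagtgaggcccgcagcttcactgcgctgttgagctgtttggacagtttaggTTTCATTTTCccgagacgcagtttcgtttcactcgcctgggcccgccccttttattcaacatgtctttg
In the 250 bases before the start, the ISRE core was in 13 of 58 members and in 3.41% of all promoters, and the GAS motif in 8 members and 7.67% of promoters. Beside the 5 genes shown, the ISRE core was in Ifitm3, in the loading genes B2m, Tap1, Tap2, and Tapbp, and in the class I genes RT1-N3, RT1-S2, and RT1-S3. It was not found for the effectors Ifit2, Isg15, Mx1, and Mx2, some of which may lack a promoter sequence. The promoters of the signalling genes Irf1, Irf9, and Stat2 did not hold it either.

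**Figure D3:**
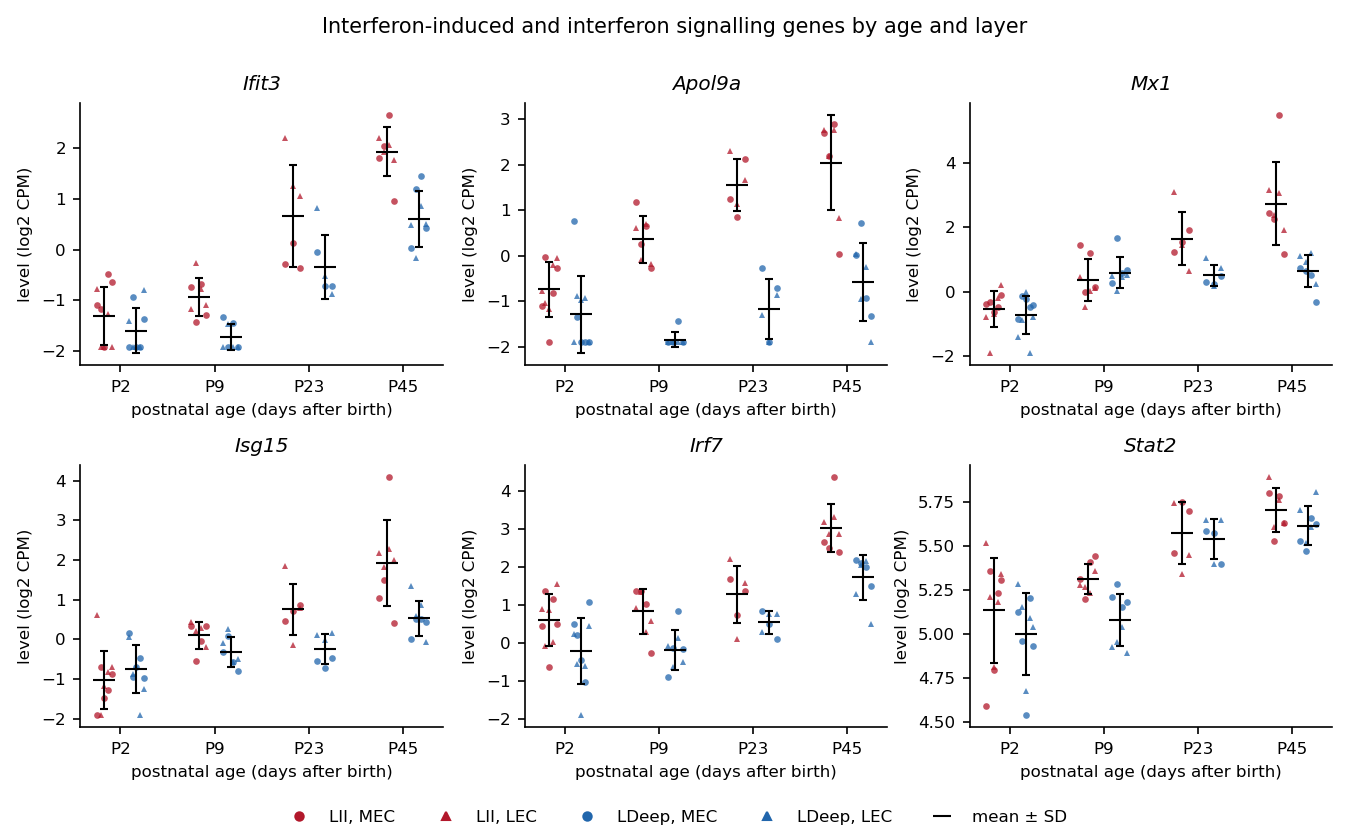
Levels of 6 interferon-related genes by age, as log2 CPM with 1 point per sample (red LII, blue LDeep, circles MEC, triangles LEC) and the mean ± SD of each layer in black. Single LII samples stand far above the rest in Mx1, Isg15, and Irf7 at P45, and the layers of Stat2 overlap at each age.

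To follow the course with age, the 4 dissections of each replicate number were summed, which gave 16 sums in which both libraries of MEC P2 replicate 1 stand together, and P23/P45 was compared with P2/P9. Of the 55 members tested, 47 were up-regulated and 2 down-regulated in older rats, where 77.3% of all 13092 genes differed, 38.3% up and 39% down. The median LFC of members was 1.06, against -0.008 for all genes. All 7 class II genes tested rose (median LFC 3.75), as did 26 of 30 class I genes (0.70 over the 30), 8 of 9 effectors (1.88), 3 of 5 loading genes (0.53), and 3 of 4 signalling genes (0.56). Of the class II genes, RT1-Da, RT1-Ba, RT1-Bb, and Ciita held most of their counts in LII at P23/P45, so their rise describes mainly LII. They passed the filter on low counts mainly through these samples. The class II genes with too few counts are not in the median. At P23/P45 and P2/P9, RT1-DMa held 50 and 20 counts, RT1-Db2 21 and 13, RT1-DMb 15 and 9, RT1-DOa 6 and 12, and RT1-Ha 0 and 0. From P2 to P9, 30 members rose and Irf9 fell (LFC -0.22 ± 0.087), where 54% of all genes differed, 27.7% upward and 26.3% downward. From P9 to P23, 26 rose and 3 fell (55.8% of all genes differed, 27.1% upward and 28.7% downward), with RT1-M6-2, RT1-M6-1 (LFC 4.60 ± 0.61), RT1-Bb (4.10 ± 0.58), RT1-Da (3.46 ± 0.44), and Cd74 (3.39 ± 0.32) the largest. The 3 that fell were RT1-M5 (LFC -1.89 ± 0.59), RT1-DOb, and Tap1 (-0.55 ± 0.18). From P23 to P45 only Irf7 (LFC 1.74 ± 0.36, adjusted p = 0.044) and RT1-A2 (0.79 ± 0.17, adjusted p = 0.048) were called, both upward, where 0.458% of all genes differed, 0.137% upward and 0.321% downward.

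The age comparison was also made in each layer alone. With LII samples alone 46 members rose and 2 fell of 54 tested, where 73% of all genes differed, 36.1% upward and 37% downward. With LDeep samples alone 30 rose and 3 fell of 48, where 73.1% differed, 36.7% upward and 36.5% downward. In LDeep RT1-Db1 had an age LFC of 0.13 (adjusted p = 0.6) and RT1-CE4 of -0.075, while over both layers both were called. Among the other class II genes, RT1-Da, RT1-Ba, RT1-Bb, and Ciita had too few counts for the test in LDeep alone. There Cd74 rose (LFC 2.26) and RT1-DOb was not called (LFC 0.35). Microglial markers also rose, 9 of 10 of them, their sum going from 154 CPM in LII and 163 in LDeep at P2 to 527 and 429 CPM at P45. Astrocyte markers rose in 4 of 5 and fell in 1, with a sum of 862 CPM in LII and 669.5 in LDeep at P2 and 3823 and 2262 CPM at P45. All 4 oligodendrocyte markers rose, from 48.4 and 58.8 to 2266 and 4854 CPM. The border macrophage sum in LII was 68.4, 64.2, 75.2, and 72.8 CPM in order of age. The 6 genes counted from the list for T, B, and dendritic cells summed to 9.2 to 17 CPM in LII at P2 and 27.4 to 42.7 CPM at P45. Most of it was Flt3, Cd4, and Ptprc, so the sum was not taken as a level of these cells. The T cell gene Cd3e was at 0 in all 20 samples of P2. The part of these cells in the rise was not tested.

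**Figure D4:**
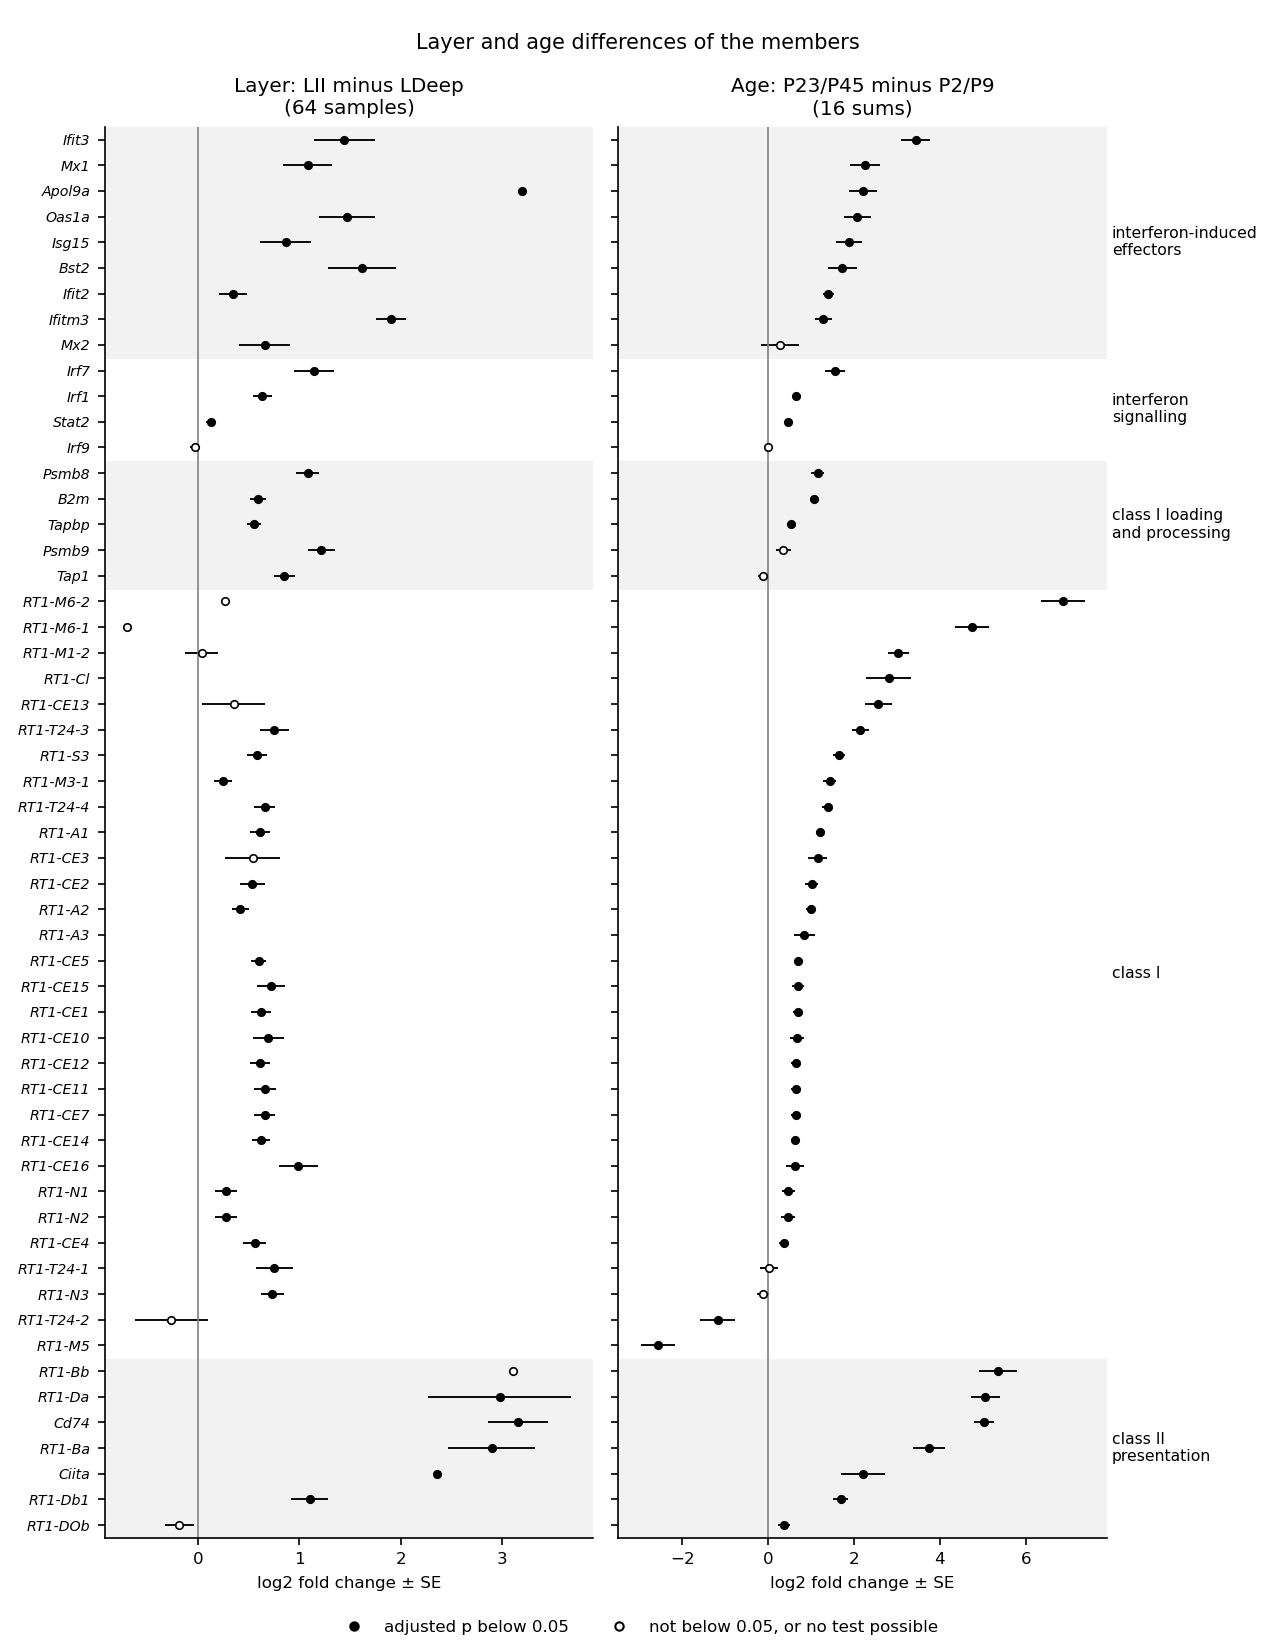
LFC ± SE of the members by role, between layers (LII over LDeep, 52 members) and between ages (P23/P45 over P2/P9, 55 members), filled where the adjusted p was below 0.05 and open where it was not or no test could be made. Most points lie right of 0 in both panels, the class II genes and effectors farthest in the layer panel, and RT1-M5 and RT1-T24-2 lie left of 0 in the age panel.

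The number of members called between layers was larger at each later age. At P2, 7 members were higher in LII and RT1-A2 was lower, where 19.2% of all genes differed, 10.8% upward and 8.48% downward, and without P2 replicate 1 they were 9 and 1 (18.1%). The 7 were RT1-CE16 (LFC 1.33 ± 0.42), RT1-N3, RT1-S3, RT1-T24-4, B2m, Ifit2, and Ifitm3 (1.58 ± 0.29), and none was a class II gene. At P9, 20 members were higher in LII (33% of all genes differed, 16.7% upward and 16.2% downward), at P23, 30 (25.9%, 14.8% and 11%), and at P45, 39 (26.4%, 14.4% and 12%), with none lower. Leaving out replicate numbers of the age in question gave 11 to 14 at P9, 17 to 24 at P23, and 31 to 38 at P45. Of all genes, 22.3 to 25.7%, 16.3 to 18.9%, and 19.3 to 32.5% were then called at these ages. At P9 the share of members called was thus near that of all genes, with all of these members higher in LII. The numbers that moved the count most were P2 replicate 4 (5 members) and 5 (4), P9 replicate 1 (11) and 2 (13), and P23 replicate 3 (17). All LII samples lay above all LDeep samples in 0 of 52 members at P2 (0.0559% of all genes did), in 3 at P9 (5.24%), in 17 for P23 (9.66%), and in 16 for P45 (4.2%).

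In the test of the change itself, the layer LFC at P23/P45 minus that at P2/P9, 14 members were called and all were larger at P23/P45, where 8.8% of all genes changed, 4.83% in this direction and 3.97% in the other. Without P2 replicate 1, 14 were larger and Ifit2 was smaller (difference -0.73, adjusted p = 0.022). The class II genes were Ciita (difference of LFC 4.95), Cd74 (3.25 ± 0.75), and RT1-Db1 (2.54 ± 0.36). Cd74 was not called without P2 replicate 5 (difference 2.87 to 3.47 over all left-out numbers) and Ciita not without P9 replicate 3 (4.57 to 5.56). The loading genes were Psmb9 (1.26 ± 0.27), Tap1 (1.05 ± 0.21), and Psmb8 (0.92 ± 0.23), the effectors Mx1 (2.09 ± 0.49) and Isg15 (1.62 ± 0.48), and the class I genes RT1-CE2, RT1-CE10, RT1-A2, RT1-CE4, RT1-CE5, and RT1-CE14. Of the last, RT1-A2 had the lowest adjusted p (2.9e-06). RT1-CE4 was not called without P23 replicate 3 (0.69 to 1.00). Isg15 was not called when any of 5 replicate numbers was left out, namely P2 3, P9 2, P23 1 and 3, and P45 3 (1.17 to 1.71), and RT1-CE14 was not when any of 9 was (0.46 to 0.64). Among the fibroblast markers, 1 of 9 had a smaller layer difference at P23/P45 and 8 were not called, and of 5 border macrophage markers 1 was smaller and 4 were not called, with none called larger. Medians of the microglial sum were 154 CPM in LII and 163 CPM in LDeep at P2, and 527 and 429 CPM at P45. For the genes listed for T, B, and dendritic cells they were 12.5 and 15.0 CPM at P2, and 30.9 and 22.3 CPM at P45. The part of cell composition in the change was not tested.

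The regions were compared over both layers and all ages. Of the 52 members 8 were higher in the MEC than in the LEC and none lower, which is 15.4% of them, while 15.4% of all genes differed, 8.87% upward and 6.53% downward. They were RT1-DOb (LFC 0.69 ± 0.15, adjusted p = 0.00038), RT1-CE7 (0.41 ± 0.11), RT1-N2 (0.41 ± 0.11), RT1-CE11 (0.40 ± 0.11), RT1-N1 (0.40 ± 0.11), RT1-A1 (0.27 ± 0.10), RT1-M3-1 (0.26 ± 0.090), and RT1-CE5 (0.22 ± 0.072). RT1-CE7 and RT1-CE11, like RT1-N1 and RT1-N2, share most of their exonic bases and are not independent. Without P2 replicate 1, 6 were called, with RT1-M3-1 and RT1-CE5 lost. RT1-A1 was not called when any of 13 of the 16 replicate numbers was left out (LFC 0.22 to 0.32) and RT1-M3-1 when any of 10 was (0.23 to 0.28), and 5 members were called without P9 replicate 3. The difference of the layer LFC between regions was called for 0 of 52 members by edgeR and by DESeq2 (1.25% of all genes by edgeR, 0.942% upward and 0.303% downward), and 2 members had an unadjusted p under 0.05 with either tool.

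Since the rats were outbred and class I genes vary between animals, it was asked whether the 4 dissections of a replicate number deviated together. In a joint test of the replicate numbers within age (12 coefficients), 9 of 52 members were called, where 9.98% of all genes were. Mx2 (chr11:38035513-38059579) had the largest F statistic, 27.1 (adjusted p = 3.7e-12). At P9 its mean over the 4 dissections was 35, 30.4, and 36.1 CPM in replicates 1 to 3 and 4.16 CPM in replicate 4, where the dissections ran from 2.68 to 6.69 CPM and so below the 23 CPM of the lowest dissection of the others. At P23 it was 32.6 CPM in replicate 1 (22 to 46.3) against 7.29 and 10.5, and at P45 15.4, 10.9, 68.1, and 63 CPM. At P2 all 5 means lay between 13.3 and 19.3 CPM. At P45 the dissections of replicate 3 ran from 25.2 to 169.8 CPM, the highest being MEC LII, and those of replicate 1 from 7.81 to 25.5 CPM, so these numbers overlapped, whereas replicate 4 (34.4 to 83.9) lay above replicates 1 and 2 (6.48 to 16.2 for the latter).

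The other members named by this test were RT1-M3-1 (adjusted p = 5.8e-05), RT1-N2 (0.0026), RT1-N1 (0.0033), Cd74 (0.0039), and RT1-M6-2 (0.017). RT1-M3-1 at P23 had means of 7.02, 9.58, and 14.3 CPM, with ranges of 5.61 to 7.81, 8.96 to 10.3, and 12.2 to 15.8 CPM that did not overlap. RT1-M6-2 at P45 had means of 4.2, 4.08, 1.14, and 4.14 CPM, and replicate 3 (0.493 to 1.81) lay below the dissections of the others. For RT1-N2 the lowest number at P9 was replicate 1 with a mean of 5.78 CPM (2.93 to 10.6), against 9.56 to 11.5 CPM, and RT1-N1 shares its reads. Cd74 at P45 had means of 42.8, 26.6, 39.2, and 10.2 CPM over dissections that include both layers. RT1-T24-3, RT1-Da, and Ifitm3 were the other 3 called.

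**Figure D5:**
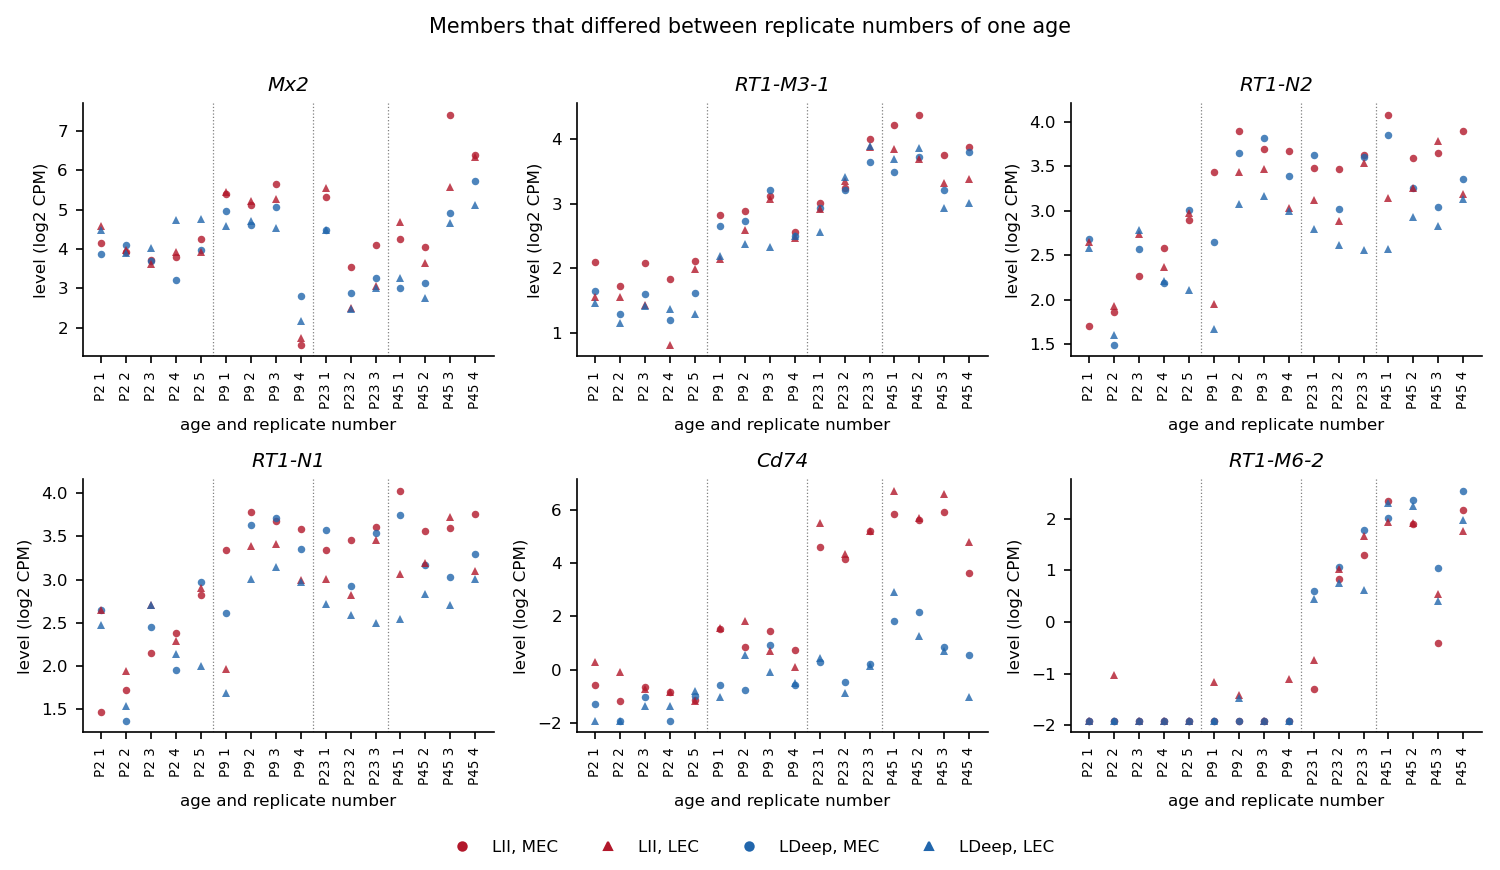
Levels of the 6 members named by the test of replicate numbers, as log2 CPM by age and replicate number, with 4 points for the 4 dissections of each number. In Mx2 the points of P9 replicate 4 lie together below those of the 3 other numbers, and in RT1-M6-2 those of P45 replicate 3 lie below the others.

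Genes of the same pathways that are not members were counted from 3 lists. Of 20 presentation genes tested 11 were higher and 2 lower in LII, of 23 genes of interferon sensing and signalling 12 and 3, and of 29 interferon-induced genes 26 and 2, where 54% of all genes differed, 23.5% upward and 30.5% downward. The largest in each list were Hfe, a class I-like regulator of iron uptake (LFC 2.03 ± 0.18), Cd40, a co-stimulatory receptor (1.46 ± 0.17), and Fcgrt, the class I-like receptor of IgG (1.46 ± 0.10), then Tlr3, a sensor of double-stranded RNA (1.08 ± 0.13), and Ifitm1 (2.24 ± 0.20), Apol3 (1.78 ± 0.16), and Ifitm2 (1.68 ± 0.13). Lower in LII were Jak1 (-0.26 ± 0.033), Jak2 (-0.22 ± 0.038), Tbk1 (-0.16 ± 0.037), Adar (-0.24 ± 0.045), Cmpk2 (-0.19 ± 0.043), Lgmn (-0.14 ± 0.055), and Canx (-0.079 ± 0.032). The kinases Jak1 and Jak2 carry the signal of interferon receptors, and Tbk1 activates IRF factors.

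With age 10 of 21 presentation genes rose and 6 fell, 16 of 24 sensing and signalling genes rose and 5 fell, and 22 of 30 interferon-induced genes rose and none fell, where 77.3% of all genes differed, 38.3% upward and 39% downward. The share of presentation genes called was thus near that of all genes. Ctss, the protease that trims the invariant chain, rose most in the first list (LFC 3.23 ± 0.11), and the proteasome activators Psme1 (-0.83 ± 0.095) and Psme2 (-0.74 ± 0.088) fell. In the second list Irf5 (1.63 ± 0.10) and Irf2 (1.42 ± 0.13) rose most and Socs1, an inhibitor of JAK kinases, fell most (-1.08 ± 0.12). In the third the largest were Ifi27 (2.62 ± 0.34), Oas1k (2.22 ± 0.48), and Ifit1 (1.89 ± 0.53). Between regions 1 gene of each of the first 2 lists (Ctss lower in the MEC, LFC -0.28 ± 0.087, and Irf5 higher, 0.21 ± 0.075) and 2 of the third, Oas1b and Lgals3bp, both lower in the MEC, were called. In each list this was below the share of all genes, of which 15.4% differed, 8.87% upward and 6.53% downward. The layer difference was larger at P23/P45 in Ifi30, Psme1, and Psme2 of the first list, in Ifngr2 of the second, and in Ifitm1, Lgals3bp, and Ifitm2 of the third, and Jak1 was called in the other direction. Of all genes 8.8% changed in this test, 4.83% toward a larger difference at P23/P45 and 3.97% in the other direction. At most 3 genes are named per list and direction, and the number called in each list is not given here. Whether these lists changed more often than all genes can thus not be read from the names.

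The remaining members had too few counts for both tests. They were RT1-DMa (70 counts over all 64 samples), RT1-M4 (76), RT1-M1-4 (63), RT1-O1 (59), RT1-Db2 (34), Tap2 (30), RT1-DMb (24), RT1-S2 (20), RT1-DOa (18), RT1-T18 (15), RT1-CE6 (11), RT1-M2 (5), RT1-M1-5 (4), RT1-M10-1 (4), and RT1-Ha (0). RT1-DMa and RT1-DMb form the DM molecule that loads class II, and with RT1-Ha and Tap2 they are annotated at 2 places each, so their low counts may not stand for their expression. RT1-M5, RT1-Cl, and RT1-A3 passed the filter only in the sums by age, where RT1-A3 rose (LFC 0.84 ± 0.24).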

How the data were processed

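The authors deposited raw counts of read pairs per gene. Per their methods, libraries were made with TruSeq Stranded Total RNA Ribo-Zero Gold, trimmed with Trimmomatic 0.33, aligned to rn6 with STAR 2.4.0, and counted by strand over RefSeq exons with featureCounts of Subread 1.4.6-p1. Pairs overlapping several genes were counted for each gene, and pairs mapping to several places for none.

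Members and lists were chosen with earlier results of these data known. The deposited counts were used without change. Low genes were removed with filterByExpr, and edgeR 4.0.16 (R 4.3.3, TMM, quasi-likelihood test, BH over all genes tested) was fitted to 64 samples in 16 groups for layer, region, their interaction, layer by age, and replicate number within age. For age it was fitted to 16 sums of 4 dissections. Log2 CPM in the plots has a prior count of 2 (matplotlib 3.10.9). Members past an adjusted p of 0.05 were named by size of LFC, up to 25 per comparison. The 3 largest of each role had values given by group, the 6 with the largest F were named for replicate number, and at most 3 pathway genes were named per list, direction, and comparison. Other genes were chosen after their values were seen. On simulated counts, 200 of 200 genes changed by an LFC of 1 were recovered between layers (6.54% of calls false, 12301 genes) and 190 of 200 between ages (5% false, 12929 genes). The changed genes were drawn only from genes above a count limit, and samples were simulated as independent. Recovery of members with few counts, or with replicate numbers that deviate together, was thus not examined. Alternatives used DESeq2 1.42.0, limma 3.58.1, other filters and scalings, and left-out replicate numbers. Replicates of a group differed by more than counting noise in all 100 pairs (chi-square per degree of freedom at least 3.08).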

Additional observations from a re-analysis of the deposited data

Results flagged for a closer look

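Each of 15 members with values given by sample was examined for single samples that stood apart, as the gap to the nearest sample divided by the range of a layer at an age. Of 118 groups tested, 16 had a sample past the 95% limit of Dixon, where chance gives about 5% of groups. In 6 of them the ratio was 1.0 because 1 sample alone had counts. They were RT1-M6-1 (LEC LII P2 replicate 4), RT1-M6-2 (LEC LII P2 replicate 2 and LEC LDeep P9 replicate 2), RT1-Bb (MEC LII P2 replicate 3 and MEC LDeep P2 replicate 1), and Apol9a (MEC LDeep P9 replicate 3).

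B2m stood apart in 3 groups, with ratios of 0.594 in MEC LDeep P2 replicate 4, 0.689 in MEC LII P23 replicate 2, and 0.621 in LEC LDeep P45 replicate 4. Mx1 did so in 3, with 0.535 in LEC LII P2 replicate 2, 0.597 in MEC LDeep P9 replicate 2, and 0.541 in MEC LII P45 replicate 3. Irf7 had a ratio of 0.531 in that same LII library of P45, and Irf1 one of 0.534 in MEC LII P45 replicate 4. Apol9a had a ratio of 0.614 in MEC LDeep P2 replicate 1, and RT1-M6-1 one of 0.576 in LEC LDeep P45 replicate 3.

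Members whose layer LFC differed between P23/P45 and P2/P9 by edgeR's quasi-likelihood test were Ciita, with a difference of 4.95, Cd74 (3.25), RT1-Db1 (2.54), Mx1 (2.09), Isg15 (1.62), RT1-CE2 (1.27), Psmb9 (1.26), RT1-CE10 (1.26), RT1-A2 (1.12), Tap1 (1.05), Psmb8 (0.92), RT1-CE4 (0.86), RT1-CE5 (0.74), and RT1-CE14 (0.59). All were larger at P23/P45.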

How the results depend on the processing

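A filter of at least 10 counts in every sample left 11 members for the comparisons over 64 samples, and then 10 were called between layers, 3 between regions, 3 for layer by age, and 3 for replicate number, and 28 between ages. With limma voom 14 members instead of 9 were called for replicate number. With 1 replicate number left out at a time, the counts ran from 37 to 44 for layer, 49 to 51 for age, 5 to 8 for region (5 without P9 replicate 3), 11 to 15 for layer by age, and stayed at 0 for layer by region. Of the counts of called members recomputed, 116 stayed within 1.5 times the value given and 7 did not. For members called in the comparison given, 2539 values kept direction and call, 108 kept direction without the call, and 2 reversed. The 2 were RT1-M3-1 between layers with quantile normalization (LFC -0.028) and RT1-CE4 between ages in LDeep alone (-0.075), and the cause was not tested. DESeq2 called 44 members between layers and 17 for layer by age, and quantile normalization 34 and 16. Within samples of the MEC 35 were called between layers and of the LEC 39. As 64 separate samples, 44 were called between ages. Samples of one replicate number were not treated as pairs in the main fit. Same-numbered samples correlated at 0.134 on average over all genes (over 0.1 in 55 of 96 pairs). Samples of other numbers correlated at -0.043 (over 0.1 in 59 of 300 pairs), and 37 of 64 samples correlated best with one of their own number. Same-numbered samples were thus more alike, while the layer and region p-values of the main fit treat all samples as independent. With the replicate block 43 members were called between layers, 8 between regions, 0 for layer by region, and 16 for layer by age. The shares of all genes called by the alternative fits of this section are not given. Their counts alone do not show whether members were called more often than other genes. Members below about 1 CPM are limited by depth, and 5 members had groups at 0, so their fitted layer LFC depends on the prior count and has no standard error.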
